A study of Mus musculus with 4 samples.

Results

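This section describes 48 mouse genes that encode cytoplasmic translation initiation, elongation, release and recycling factors, in mouse embryonic stem (ES) cells deficient in Smg6 and in wild-type ES cells. The genes were chosen by name, as rows whose Ensembl gene identifier carries one of 48 gene symbols in the GENCODE M21 annotation, and all 48 were found among the 37224 gene identifiers of the tables. They fall into 7 groups by role: eIF2 (3 genes), eIF2B (5), eIF3 (13), eIF4 with its repressors (11), scanning and subunit joining (6), elongation (6), and termination and recycling (4). RNA-seq had been done on 4 libraries, 2 of Smg6-deficient ES cells and 2 of wild-type ES cells. The labels call the genotypes Smg6-deficient and normal. They give no allele, promoter, strain or treatment, and it is not stated whether both libraries of a genotype go back to independent cultures. The p-values here therefore measure only how far these libraries differ, which may be technical. Each library was made from 2.5 µg of TRIzol-extracted total RNA with a TruSeq version 2 kit and read as single 50-nucleotide reads.

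Cap-dependent initiation begins when the eIF4F complex, made of the cap-binding protein eIF4E, the scaffold eIF4G and the helicase eIF4A, binds an mRNA and recruits the small ribosomal subunit. That subunit carries eIF3, eIF1, eIF1A, eIF5 and the eIF2 complex that brings the initiator tRNA, and it scans to a start codon, after which eIF5B joins the large subunit. Elongation factors eEF1A and eEF2 then deliver tRNAs and translocate the ribosome, and the release factors eRF1 and eRF3 end synthesis at a stop codon. SMG6 cuts transcripts that are targets of nonsense-mediated decay (NMD), which removes mRNAs whose stop codon lies well upstream of an exon junction, and eRF3 binds the NMD factor UPF1 at terminating ribosomes.

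The 4 libraries held between 130888768 and 155391181 counted reads, and 20895 genes passed the filter on low counts. Smg6 itself had 87.6 and 86.2 CPM in the Smg6-deficient libraries, against 95.7 and 105 CPM in the wild-type libraries (log2 fold change -0.21, SE 0.08, adjusted p by edgeR 0.0886); a count over the whole gene does not check the allele, since a transcript with part of it missing is still counted. CPM here is the count scaled to library size, after adjustment by the trimmed mean of M-values (TMM). Summed over 7 ES cell markers the level was 2566 and 2561 CPM in the Smg6-deficient libraries, against 3880.3 and 3163 CPM in the wild-type libraries, and 1 marker rose (Utf1) and 4 fell (Pou5f1, Nanog, Zfp42 and Esrrb). All 8 endoderm markers rose, with sums of 878 and 1502 CPM in the Smg6-deficient libraries, against 108 and 85.2 CPM in the wild-type libraries, and 2 of 8 fibroblast markers (Col1a1 and Fbn1) rose, with sums of 1236 and 1128 CPM in the Smg6-deficient libraries, against 1007 and 751 CPM in the wild-type libraries. The Col1a1 call (adjusted p by edgeR 0.0489) was lost in 10 of 17 other ways of processing, at 0.163 without Smg6-deficient replicate 1 for example. Without that library Pou5f1, Zfp42 and Esrrb did not pass either (0.0543, 0.0828 and 0.0799), nor did Pou5f1 without replicate 2 (0.0521). No marker of either list was at 0 in any library. The part of the cell types these markers stand for in any value below was not tested. In bulk RNA, fewer cells of a type and less RNA per cell cannot be told apart.

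Of the 48 translation factor genes, all 48 passed the filter on low counts. In Smg6-deficient cells 10 were higher and 8 were lower than in wild-type cells by edgeR's quasi-likelihood test at a Benjamini-Hochberg adjusted p under 0.05, and 30 did not pass. That is 37.5% of the group, and of all genes tested 39.7% passed, with 20.5% higher and 19.2% lower. Among all genes with a mean of at least 20 CPM 47.8% passed. The share of translation factor genes that passed was thus near that of all genes and below that of the more abundant ones. The median log2 fold change over the 48 genes was 0.02, against 0.01 over all genes tested. The libraries of the 2 genotypes did not overlap for 33 of the 48 genes, or 68.8%, where 73.2% of all genes did not overlap. The 48 genes took 2.41% and 2.39% of all counted reads in the Smg6-deficient libraries, against 2.44% and 2.39% in the wild-type libraries, and the groups overlapped.

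By role, 5 of 11 genes rose and 2 fell in the eIF4 group, and 2 of 13 rose and 0 fell in eIF3. Of the 3 eIF2 genes, 2 fell. In eIF2B 1 of 5 genes rose, and in scanning and joining 2 of 6 rose and 2 fell. A single gene fell in elongation, of 6, and in termination and recycling, of 4. Of all genes tested 20.5% were higher and 19.2% lower. Among the genes that fell, Eif2s3x in eIF2, Eif1ax in scanning and joining and Gspt2 in termination are X-linked. Of all X-linked genes tested 56.7% were lower. The differences between these groups were not tested, and the counts are a description.

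**Figure D1:**
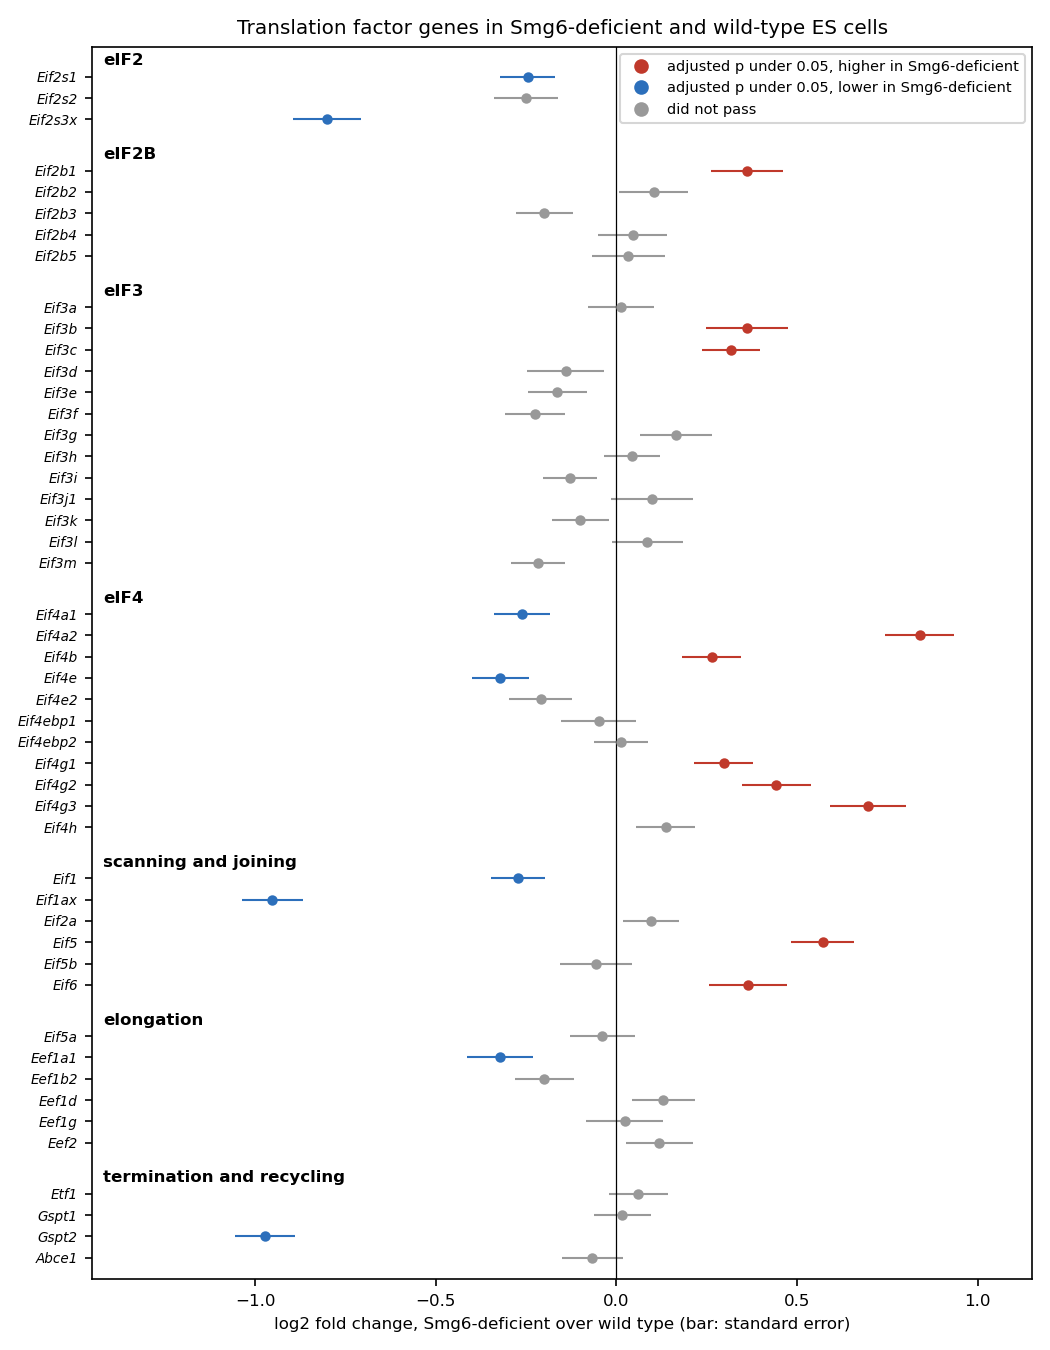
Log2 fold change of each of the 48 genes, Smg6-deficient over wild type, with its standard error as a bar, from 2 libraries of each genotype. Red points (10) are higher and blue points (8) are lower in Smg6-deficient cells at an edgeR adjusted p under 0.05, and grey points (30) did not pass. The points farthest from 0 are Eif4a2 and Eif4g3 on the right and Gspt2, Eif1ax and Eif2s3x on the left.

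Of the 18 calls, 6 held in each of 17 other ways of processing the counts: Eif4a2, Eif4g3 and Eif5 rose, and Eif1ax, Eif2s3x and Gspt2 fell. The other 12 calls, all with log2 fold changes between -0.32 and 0.44, did not pass with 1 Smg6-deficient library only, whichever it was, nor in limma-trend on log2(RPKM + 1), by which 28% of all genes passed. Over all genes tested, too, fewer passed with 1 Smg6-deficient library only than with all libraries. More passed with either wild-type library left out. No called gene changed direction in any alternative.

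The first feature that the choice of genes did not use is the annotation of NMD transcripts. Of the 48 genes, 11 have at least 1 transcript annotated as an NMD substrate in GENCODE M21: Eif2b1, Eif3c, Eif3k, Eif4a1, Eif4a2, Eif4g1, Eif2a, Eif5, Eif6, Eef1b2 and Gspt2. In Smg6-deficient cells 6 of these 11 were higher, 2 were lower and 3 did not pass, with a median log2 fold change of 0.30. Of the 37 genes without such a transcript 4 were higher, 6 were lower and 27 did not pass, with a median of 0.01. Among all coding genes tested, 33.3% of the 4152 with an annotated NMD transcript were higher and 14.6% lower (median 0.15), and 20.7% of the 12303 without one were higher and 22.3% lower (median 0.00). The counts are per gene, so reads from these transcripts were not separated from reads of the other transcripts.

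For the 6 genes of this kind that rose, the premature ends are shown because they hold the stop codon that lies before a later exon junction. Each line gives the last 45 coding bases of the longest annotated NMD transcript that starts at an ATG, from GENCODE M21 on GRCm38, with its premature stop codon in capitals. In the order of the lines, the first 35, 37, 42, 23, 30 and 11 of the 45 bases also occur in the main transcript.
Eif4a2-204: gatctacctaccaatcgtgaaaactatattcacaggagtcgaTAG
Eif5-215: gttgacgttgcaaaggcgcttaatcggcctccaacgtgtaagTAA
Eif4g1-222: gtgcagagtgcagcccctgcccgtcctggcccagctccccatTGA
Eif6-203: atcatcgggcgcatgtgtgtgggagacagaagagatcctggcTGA
Eif2b1-206: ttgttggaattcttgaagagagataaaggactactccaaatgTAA
Eif3c-203: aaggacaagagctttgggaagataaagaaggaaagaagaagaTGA
The stop of the Eif4a2 transcript lies at chr16:23112358-23112360 on the plus strand, in exon 11 of 12, after 362 codons, where the main coding transcript has 407, and 97 nucleotides before the last exon junction. The Eif5 stop at chr12:111539888-111539890 on the plus strand lies in exon 2 of 9 after 53 codons, where the main transcript has 429. The Eif4g1 stop at chr16:20686540-20686542 on the plus strand comes in exon 5 of 13 after 79 codons, where the main transcript has 1600. All 3 of these stops thus leave a later exon junction, and for Eif5 and Eif4g1 the last junction is 902 and 927 nucleotides away. On the minus strand, the stops are at chr2:155823346-155823348 for Eif6 (71 codons, where the main transcript has 245), chr5:124576898-124576900 for Eif2b1 (43 codons, where the main transcript has 305) and chr7:126563719-126563721 for Eif3c (66 codons, where the main transcript has 911). Their last exon junctions lie 154, 282 and 147 nucleotides past the stop.

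**Figure D2:**
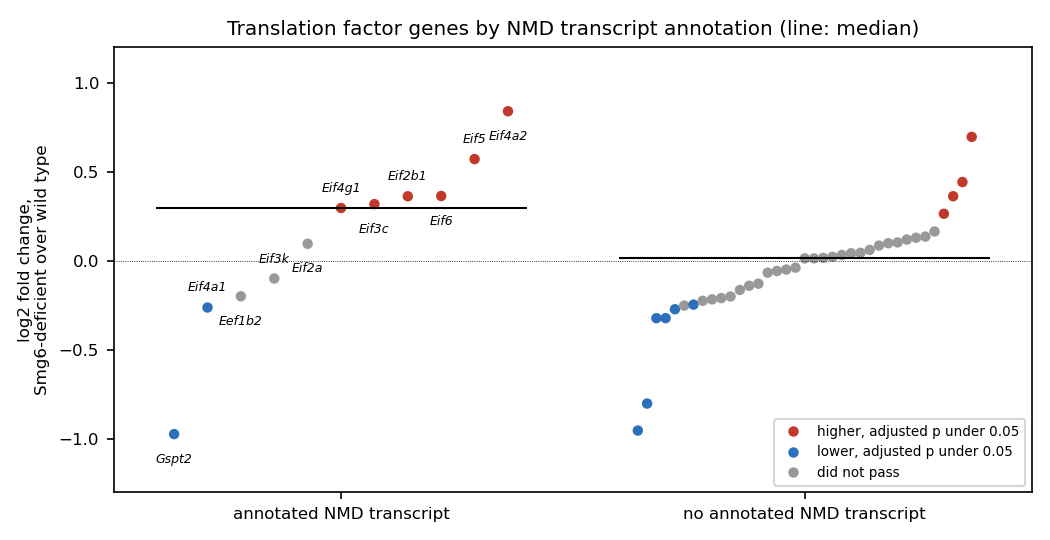
Log2 fold change of each translation factor gene, Smg6-deficient over wild type, for the 11 genes with an annotated NMD transcript and the 37 without. The medians are 0.30 with and 0.01 without such a transcript, and both sets hold genes that rose and genes that fell.

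In the eIF4 group the scaffolds and 1 helicase paralog rose, and the cap-binding protein and the other helicase paralog fell. Eif4a2 (ENSMUSG00000022884, chr16:23107444-23114136, plus strand), a paralog of the eIF4F helicase, had 669.5 and 727 CPM in the Smg6-deficient libraries, against 369 and 411 CPM in the wild-type libraries (log2 fold change 0.84, SE 0.10, adjusted p by edgeR 0.00114). Both Smg6-deficient libraries were far above both wild-type libraries. Eif4a1, the other helicase paralog, was lower, with 196 and 199 CPM in the Smg6-deficient libraries, against 243 and 231 CPM in the wild-type libraries (log2 fold change -0.26, SE 0.08, adjusted p by edgeR 0.0356). Its groups did not overlap either, but the gap was small. Because 65.3% of the 50-base stretches of the main Eif4a1 transcript also occur in other annotated genes, its count may depend on how the authors treated shared reads, which was not tested. RPKM scales counts to gene length and depth. The lengths behind the deposited RPKM were not given, and those implied by the counts ran from 0.309 to 4.2 times the main transcript over the 48 genes, while the implied read totals were 1.14 to 1.22 times the counted ones. Levels of different genes therefore depend on the length used, and a ratio's change between genotypes does so much less. In RPKM the Eif4a2 to Eif4a1 ratio was 2.78 and 2.96 in the Smg6-deficient libraries, against 1.24 and 1.44 in the wild-type libraries. The log2 difference of the ratio was 1.10, with an exact two-sided permutation p of 0.333, the smallest that 2 libraries against 2 can give. In all, 15 ratios, sums and shares were compared in this way, 9 of them at that smallest p, which is 0.556 after Benjamini-Hochberg adjustment. The negative regulator of eIF4A, Pdcd4, was also lower (log2 fold change -0.70).

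Of the scaffold genes, all 3 eIF4G paralogs were higher. Eif4g3 (ENSMUSG00000028760, chr4:137993022-138208508, plus strand) had 62 and 60.4 CPM in the Smg6-deficient libraries, against 41.1 and 34.5 CPM in the wild-type libraries (log2 fold change 0.70, SE 0.10, adjusted p by edgeR 0.00302). The Smg6-deficient libraries lay well above the wild-type ones. Eif4g1, the main scaffold, had 1033 and 1040.4 CPM in the Smg6-deficient libraries, against 847 and 841 CPM in the wild-type libraries (log2 fold change 0.30, SE 0.08, adjusted p by edgeR 0.0281), and Eif4g2, a homolog that lacks the eIF4E-binding region and whose main transcript starts at a GTG codon, had 2041 and 2128 CPM in the Smg6-deficient libraries, against 1613 and 1455 CPM in the wild-type libraries (log2 fold change 0.44, SE 0.10, adjusted p by edgeR 0.0117). For both, the 2 genotypes did not overlap. In RPKM Eif4g1, at 119.7 ± 3.89 RPKM in Smg6-deficient cells and 101 ± 5.02 RPKM in wild-type cells (SD, n = 2 each), and Eif4g2, at 175 ± 1.43 RPKM in Smg6-deficient cells and 133 ± 15.6 RPKM in wild-type cells (SD, n = 2 each), were far more abundant than Eif4g3. The mean of Eif4g3 was 4.62 ± 0.262 RPKM in Smg6-deficient cells and 2.95 ± 0.495 RPKM in wild-type cells (SD, n = 2 each).

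Eif4b, which stimulates the eIF4A helicase, was higher, with 917 and 902 CPM in the Smg6-deficient libraries, against 757 and 758 CPM in the wild-type libraries (log2 fold change 0.26, SE 0.08, adjusted p by edgeR 0.0405), while its relative Eif4h did not pass (log2 fold change 0.14). Eif4e, which binds the cap, was lower, with 98.8 and 97.5 CPM in the Smg6-deficient libraries, against 127 and 118 CPM in the wild-type libraries (log2 fold change -0.32, SE 0.08, adjusted p by edgeR 0.0184). The Smg6-deficient libraries were below both wild-type ones, and the cap-binding relative Eif4e2 did not pass (log2 fold change -0.21). The eIF4E repressors Eif4ebp1 and Eif4ebp2 did not pass (log2 fold changes -0.05 and 0.01), and their summed RPKM over that of Eif4e was 9.74 and 9.83 in the Smg6-deficient libraries, against 8.27 and 7.72 in the wild-type libraries, with no overlap. The calls of Eif4g1, Eif4g2, Eif4b, Eif4e and Eif4a1 ended with Smg6-deficient replicate 1 left out (adjusted p by edgeR: 0.209, 0.065, 0.294, 0.143 and 0.28) and with replicate 2 left out (0.224, 0.0998, 0.247, 0.165 and 0.231). Eif4b, too, passed in 5 of 17 alternatives, with adjusted p from 0.0503 to 0.0881 under other scalings, other filters and the length correction. The calls of Eif4g1, Eif4g2 and Eif4b also ended with a correction for gene length (edgeR adjusted p of 0.192, 0.137 and 0.0881).

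**Figure D3:**
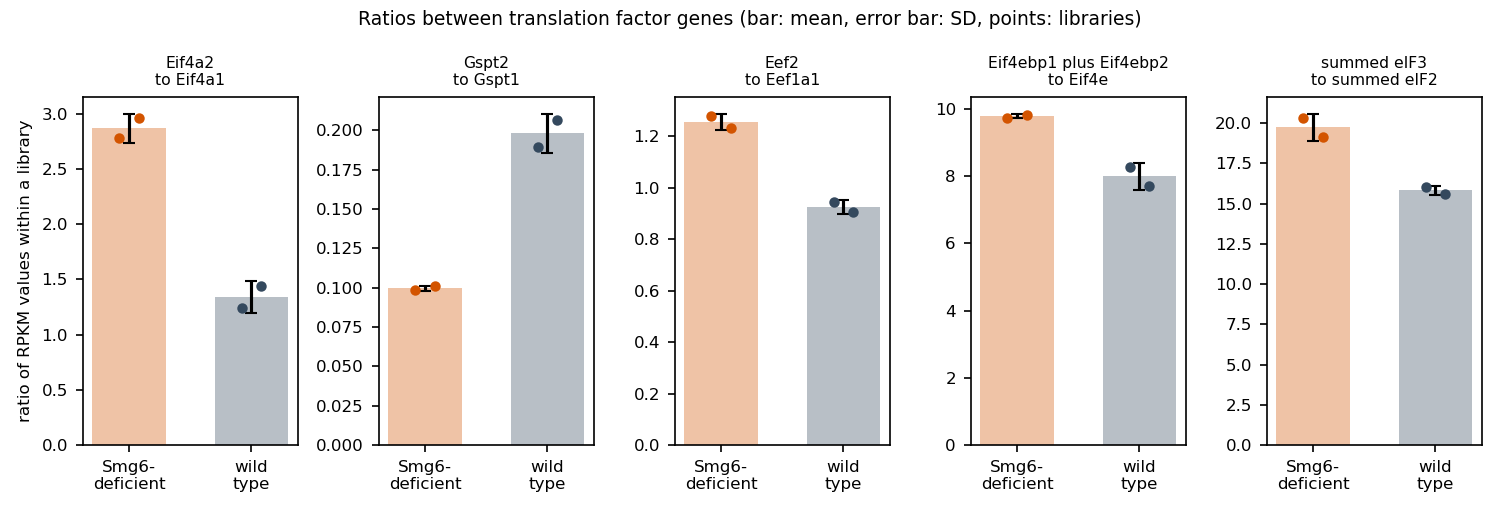
Ratio of RPKM values within each library for pairs of translation factor genes or sums, on a linear axis per panel; points are libraries, bars the mean and error bars the SD of 2 libraries, with Smg6-deficient left of wild type. The Eif4a2 to Eif4a1 ratio is 2.78 and 2.96 in the Smg6-deficient libraries, against 1.24 and 1.44 in the wild-type libraries, and the Gspt2 to Gspt1 ratio is 0.0985 and 0.101 in the Smg6-deficient libraries, against 0.189 and 0.207 in the wild-type libraries.

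Among the factors of scanning and subunit joining, Eif5, the GTPase-activating protein of eIF2, rose. Eif5 (ENSMUSG00000021282, chr12:111538016-111546752, plus strand) had 550.5 and 595 CPM in the Smg6-deficient libraries, against 375 and 397 CPM in the wild-type libraries (log2 fold change 0.57, SE 0.09, adjusted p by edgeR 0.00326), and no wild-type library reached the Smg6-deficient values. Eif1, which guards start codon choice, was lower, with 134 and 136 CPM in the Smg6-deficient libraries, against 161 and 165 CPM in the wild-type libraries (log2 fold change -0.27, SE 0.07, adjusted p by edgeR 0.0277). Its difference was small and the libraries of the genotypes did not overlap. Of the main Eif1 transcript's 50-base stretches, 31.6% occur in other genes, and the treatment of such reads was not tested. Eif1ax, the scanning factor eIF1A, was lower still, with 167 and 158 CPM in the Smg6-deficient libraries, against 326 and 303 CPM in the wild-type libraries (log2 fold change -0.95, SE 0.08, adjusted p by edgeR 0.000502), which is 0.517 times the wild-type level. It lies at chrX:159372178-159389928, plus strand. Eif6, which keeps the large subunit free of the small one until joining, was higher, with 142 and 132 CPM in the Smg6-deficient libraries, against 116 and 96.9 CPM in the wild-type libraries (log2 fold change 0.36, SE 0.11, adjusted p by edgeR 0.0349). The wild-type libraries of Eif6 were themselves unequal. Over all genes tested, log2 CPM correlated at 0.993 within the wild-type pair and at 0.996 within the Smg6-deficient pair. Eif5b, the joining GTPase, and Eif2a, an alternative initiator tRNA carrier, did not pass (log2 fold changes -0.06 and 0.10). The Eif1 and Eif6 calls ended with Smg6-deficient replicate 1 left out (adjusted p by edgeR: 0.242 and 0.191) and with replicate 2 left out (0.209 and 0.0793).

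All 3 subunits of eIF2, which carries the initiator tRNA, had lower values. Eif2s3x, the X-linked GTPase subunit (ENSMUSG00000035150, chrX:94188707-94212862, minus strand), had 22.5 and 22.4 CPM in the Smg6-deficient libraries, against 37 and 41.3 CPM in the wild-type libraries (log2 fold change -0.80, SE 0.09, adjusted p by edgeR 0.00129). Eif2s1, the subunit phosphorylated in the integrated stress response, had 199 and 202 CPM in the Smg6-deficient libraries, against 240.5 and 235 CPM in the wild-type libraries (log2 fold change -0.25, SE 0.08, adjusted p by edgeR 0.0407). The values of the 2 genotypes did not overlap for either, though the drop in Eif2s1 was small. Of the 50-base stretches of the main Eif2s3x and Eif2s2 transcripts, 36.2% and 27.8% occur in other genes. How the authors counted such reads was not tested. Eif2s2 did not pass (log2 fold change -0.25, edgeR adjusted p = 0.0613), and it was the gene second closest to the threshold from below. The Eif2s1 call ended with Smg6-deficient replicate 1 left out (adjusted p by edgeR = 0.311) and replicate 2 (0.259). The Y-linked homolog Eif2s3y had between 0 and 5 counts in the 4 libraries and was not tested.

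The nucleotide exchange factor eIF2B has 5 subunits, of which only Eif2b1, a regulatory subunit, passed. It had 97.2 and 97.8 CPM in the Smg6-deficient libraries, against 82.2 and 69.5 CPM in the wild-type libraries (log2 fold change 0.36, SE 0.10, adjusted p by edgeR 0.0275), and the gap within the wild-type pair was wider than that within the Smg6-deficient pair. The other subunits Eif2b2, Eif2b3, Eif2b4 and Eif2b5 had log2 fold changes of 0.10, -0.20, 0.04 and 0.03. The Eif2b1 call ended with Smg6-deficient replicate 1 left out (adjusted p by edgeR = 0.116) and replicate 2 (0.124).

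eIF3, the scaffold of the small subunit, had 2 genes past the threshold. Eif3b and Eif3c, both core subunits, rose. Eif3c had 709 and 715 CPM in the Smg6-deficient libraries, against 568 and 575 CPM in the wild-type libraries (log2 fold change 0.32, SE 0.08, adjusted p by edgeR 0.0203), and Eif3b, the gene just past the threshold, had 503 and 471 CPM in the Smg6-deficient libraries, against 416 and 341 CPM in the wild-type libraries (log2 fold change 0.36, SE 0.11, adjusted p by edgeR 0.0424). The libraries of the genotypes did not overlap for either gene, and the Eif3b wild-type libraries were unequal. Eif3m was the gene just short of the threshold (log2 fold change -0.22, edgeR adjusted p = 0.0566), and the 11 genes that did not pass, Eif3m among them, had log2 fold changes between -0.22 and 0.16. In RPKM Eif3k was the most abundant subunit, with 279 and 254 RPKM in the Smg6-deficient libraries, against 309.7 and 279 RPKM in the wild-type libraries, and Eif3j1 the least, with 1.81 and 1.93 RPKM in the Smg6-deficient libraries, against 1.91 and 1.7 RPKM in the wild-type libraries. The groups overlapped for Eif3j1. Its relative Eif3j2, which is outside the 48 genes and did not pass, had 22.2 and 23.2 RPKM in the Smg6-deficient libraries, against 21.9 and 20 RPKM in the wild-type libraries. Of the 50-base stretches of the main Eif3j1 and Eif3m transcripts, 54.8% and 40% occur in other genes, and how the authors counted such reads was not tested. The summed RPKM of the eIF3 genes over that of the eIF2 genes was 20.3 and 19.1 in the Smg6-deficient libraries, against 16 and 15.6 in the wild-type libraries, with no overlap; per kilobase of the main transcripts it was 13.1 and 12.2 in the Smg6-deficient libraries, against 10.4 and 10.4 in the wild-type libraries. The Eif3b and Eif3c calls ended with Smg6-deficient replicate 1 left out (adjusted p by edgeR: 0.212 and 0.168) and with replicate 2 left out (0.103 and 0.183), and that of Eif3b also ended without wild-type replicate 2 (0.0561). The Eif3b call passed in 5 of 17 alternatives, and every other scaling tried with edgeR, both other filters and the correction for gene length ended it, at adjusted p from 0.0507 to 0.0695. Its log2 fold change was 0.21 without wild-type replicate 2 and 0.52 without wild-type replicate 1.

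Eef1a1 and Eef2 were the most abundant of the 48 genes by either length. Eef1a1, which delivers aminoacyl-tRNA, was lower, with 2982 and 2930.1 CPM in the Smg6-deficient libraries, against 3609 and 3782 CPM in the wild-type libraries (log2 fold change -0.32, SE 0.09, adjusted p by edgeR 0.0294). Eef2, the translocase, did not pass, with 4732 and 4484 CPM in the Smg6-deficient libraries, against 4229.5 and 4257 CPM in the wild-type libraries (log2 fold change 0.12, SE 0.09, adjusted p by edgeR 0.338). In CPM neither gene's values overlapped between genotypes. In RPKM Eef1a1 had 1025 and 955 RPKM in the Smg6-deficient libraries, against 1286 and 1266 RPKM in the wild-type libraries, and Eef2 had 1309 and 1176 RPKM in the Smg6-deficient libraries, against 1213 and 1146 RPKM in the wild-type libraries. In RPKM the Eef2 values did overlap between genotypes, and those of Eef1a1 did not. The order of the 2 genes depends on the length used: by mean RPKM Eef2 was first in Smg6-deficient cells and Eef1a1 first in wild-type cells, but by CPM per kilobase of the main transcript Eef1a1 was above Eef2 in both genotypes. The Eef2 to Eef1a1 ratio, chosen after its values were seen, was 1.28 and 1.23 in the Smg6-deficient libraries, against 0.943 and 0.906 in the wild-type libraries. Of the 50-base stretches of the main Eef1a1 and Eef1g transcripts, 60.6% and 64.3% occur in other genes. The counts of both genes too may depend on the treatment of shared reads. The subunits Eef1b2, Eef1d and Eef1g of the exchange factor eEF1B did not pass (log2 fold changes -0.20, 0.13 and 0.02), nor did Eif5a (-0.04), the hypusine-bearing factor. The Eef1a1 call ended with Smg6-deficient replicate 1 left out (adjusted p by edgeR = 0.205) and replicate 2 (0.235).

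**Figure D4:**
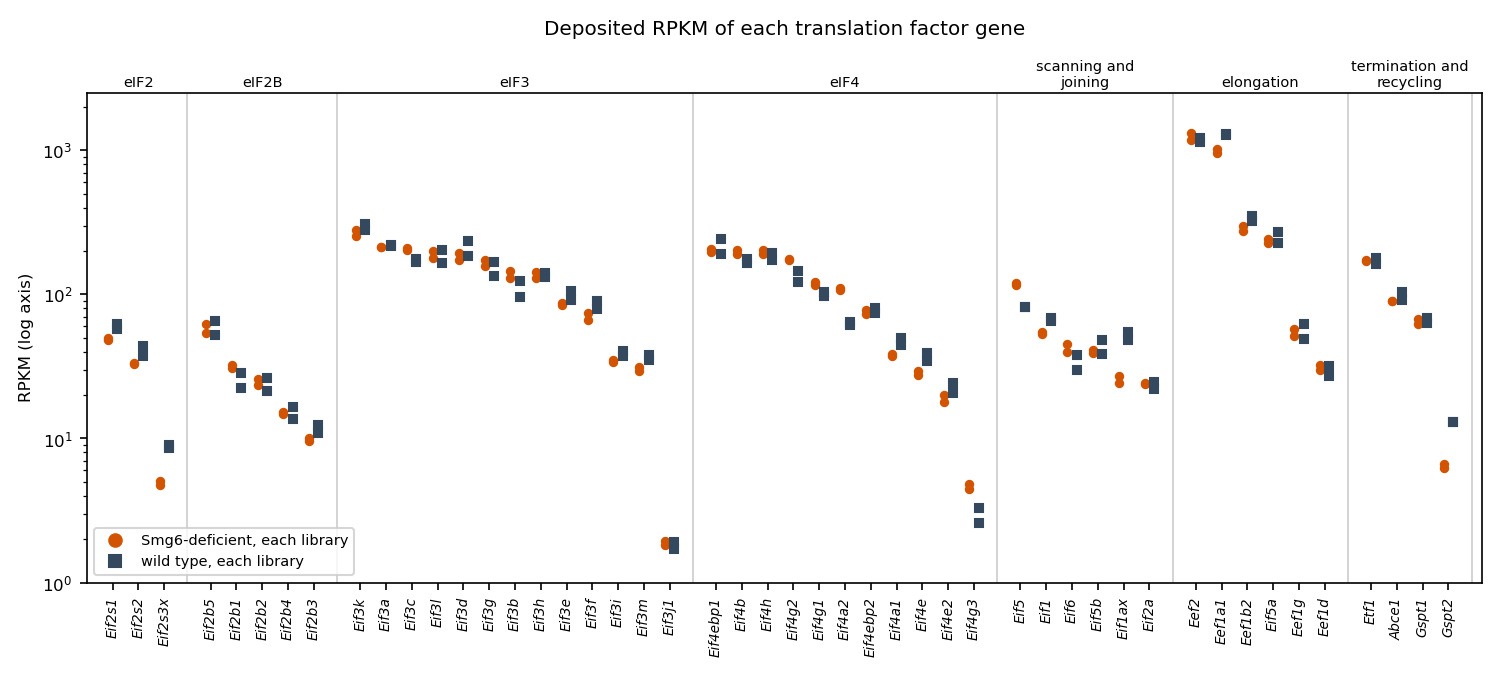
Level of each translation factor gene in RPKM on a log axis, by library, with genes ordered by group and then by level, and Smg6-deficient points left of wild-type points. Eef2 and Eef1a1 stand highest, at 955 to 1309 RPKM across the libraries of both genotypes, and Eif3j1 lowest, at 1.70 to 1.93 RPKM.

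The levels spread widely within each role. In eIF2 Eif2s3x was the lowest, at 4.92 ± 0.198 RPKM in Smg6-deficient cells and 8.83 ± 0.297 RPKM in wild-type cells (SD, n = 2 each). Of eIF2B, Eif2b5, the catalytic subunit, was highest, at 58 ± 5.43 RPKM in Smg6-deficient cells and 58.5 ± 8.9 RPKM in wild-type cells (SD, n = 2 each). The highest of the termination group was Etf1, at 171 ± 2.76 RPKM in Smg6-deficient cells and 169.6 ± 11.8 RPKM in wild-type cells (SD, n = 2 each), and the lowest was Gspt2, at 6.43 ± 0.276 RPKM in Smg6-deficient cells and 13 ± 0.0424 RPKM in wild-type cells (SD, n = 2 each). These ranks, like those of Eif3k, Eif3j1 and Eif4g3, were the same by CPM per kilobase of the main transcript, a measure chosen after the data were seen. Other ranks were not. By RPKM the highest genes of eIF2 and eIF4 were Eif2s1, at 49.1 ± 1.22 RPKM in Smg6-deficient cells and 60.1 ± 3.65 RPKM in wild-type cells (SD, n = 2 each), and Eif4ebp1, at 202 ± 7.45 RPKM in Smg6-deficient cells and 217 ± 37.4 RPKM in wild-type cells (SD, n = 2 each), but by main transcript Eif2s2 was the highest of eIF2, and Eif4a2 of eIF4 in Smg6-deficient cells and Eif4h in wild-type cells. Eif5, at 118 ± 2.12 RPKM in Smg6-deficient cells and 81.7 ± 0.382 RPKM in wild-type cells (SD, n = 2 each), was the highest scanning and joining gene by RPKM and, by main transcript, in Smg6-deficient cells only. By RPKM the lowest genes of eIF2B, scanning and elongation were Eif2b3, Eif2a and Eef1d. For Eif2b3 the length implied by RPKM is 4.2 times the main transcript, by which Eif2b4 was lowest instead. By main transcript the lowest scanning and joining gene was Eif1ax in Smg6-deficient cells and Eif5b in wild-type cells. The lowest elongation gene by that measure was Eef1g in Smg6-deficient cells and Eef1d in wild-type cells. For Eif2a and Eef1d the implied lengths are 2.66 and 2.55 times the main transcript.

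Of the release and recycling genes, Gspt2, the X-linked second gene of eRF3, fell. Gspt2 (ENSMUSG00000071723, chrX:94636069-94643244, plus strand) had 29.3 and 29 CPM in the Smg6-deficient libraries, against 55.5 and 58.9 CPM in the wild-type libraries (log2 fold change -0.97, SE 0.08, adjusted p by edgeR 0.000431). Gspt1, the main eRF3 gene, had 338 and 327 CPM in the Smg6-deficient libraries, against 334 and 324 CPM in the wild-type libraries and did not pass (log2 fold change 0.02). Both Smg6-deficient libraries of Gspt2 were far below the wild-type ones, at 0.51 times their level, while those of Gspt1 overlapped the wild-type libraries. In RPKM the Gspt2 to Gspt1 ratio was 0.0985 and 0.101 in the Smg6-deficient libraries, against 0.189 and 0.207 in the wild-type libraries. Etf1, which encodes eRF1, and Abce1, the recycling ATPase, did not pass (log2 fold changes 0.06 and -0.07).

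Of the 48 genes 3 are X-linked, namely Eif2s3x, Eif1ax and Gspt2, and all 3 fell. Of 1040 X-linked genes tested, 56.7% were lower in Smg6-deficient cells, with a median log2 fold change of -0.76, against 0.03 for autosomal genes. Of those 1040, 496, 422 and 408 had a log2 fold change below that of Eif2s3x, Eif1ax and Gspt2, so that each of the 3 lay between the lower quartile and the median of the X-linked genes. Among the 45 autosomal translation factor genes 10 were higher and 5 lower, against backgrounds of 21.6% and 17.3% among autosomal genes. The part of the shift of X-linked genes in the 3 values was not tested.

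**Figure D5:**
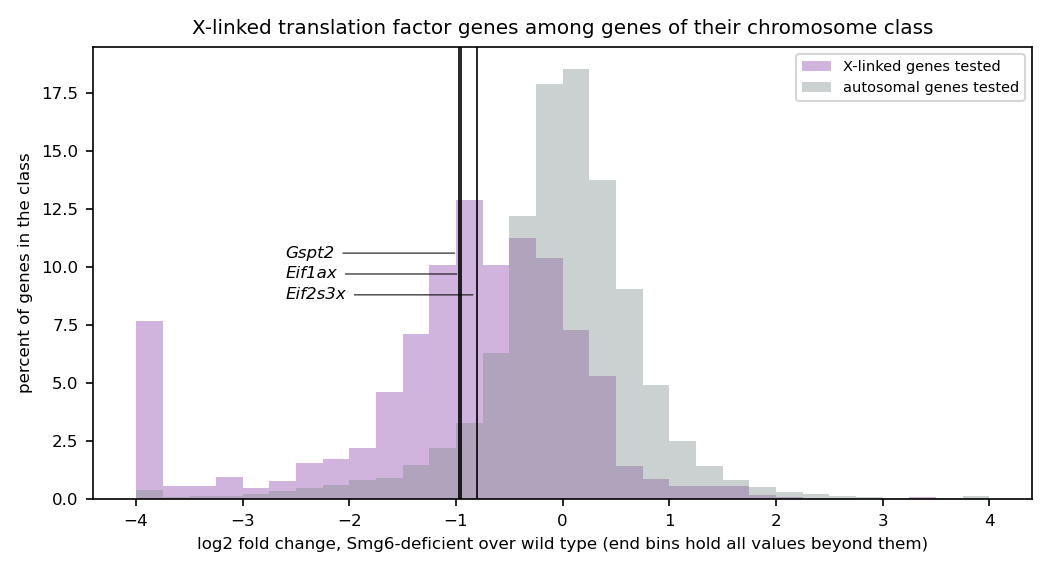
Distribution of log2 fold change, Smg6-deficient over wild type, for the 1040 X-linked and the autosomal genes tested, as percent of each set, with Eif2s3x, Eif1ax and Gspt2 marked; values beyond the axis are in the end bins. The X-linked genes have a median of -0.76 and the autosomal genes a median of 0.03, and the 3 marked genes lie at -0.80, -0.95 and -0.97.

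Related genes both rose and fell. Of 21 paralogs and accessory factors tested, of 22 listed, 4 rose and 6 fell, the smallest adjusted p being those of the X-linked Mcts1 (log2 fold change -0.81, SE 0.09, adjusted p by edgeR 0.00112), which with Denr promotes reinitiation, Eif5a2 (log2 fold change -0.66), a paralog of Eif5a, Eif1b (-0.50), a paralog of Eif1, and Abcf1 (0.48), which binds eIF2. Abcf1 did not pass in limma-trend on RPKM (adjusted p 0.0523). Those 10 calls are 47.6% of the 21 genes, and of 24 regulators 8 rose and 5 fell, or 54.2%, against 39.7% of all genes and 47.8% of those with at least 20 CPM. The kinase of the nutrient-sensing pathway Mtor rose, with 161 and 149.7 CPM in the Smg6-deficient libraries, against 91.2 and 91 CPM in the wild-type libraries (log2 fold change 0.77, SE 0.08, adjusted p by edgeR 0.000807), and so did its partner Rptor (0.72) and its substrate Rps6kb2 (1.09), a ribosomal protein S6 kinase. The 2 enzymes that make the hypusine of eIF5A, Dhps and Dohh, which were named after their values were seen, rose as well (log2 fold changes 0.69 and 0.35), and Eif5a itself did not pass. The Dohh call ended without Smg6-deficient replicate 1 (adjusted p by edgeR 0.143) and without replicate 2 (0.0804), whereas Dhps passed in all 17 alternatives. Of 10 mitochondrial translation factors only Mtrf1l, a mitochondrial release factor, passed. It had 11.5 and 12.1 CPM in the Smg6-deficient libraries, against 4.15 and 3.7 CPM in the wild-type libraries (log2 fold change 1.59, SE 0.13, adjusted p by edgeR 0.000365).

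Other features the choice of genes did not use are the following. Small nucleolar RNA genes lie inside 8 of the 48 genes, of which 4 rose and 1 fell. Of these 8, Eif4a1, Eif4a2, Eif4g1, Eif5 and Eef1b2 also have an annotated NMD transcript, so the 2 features are not separate. Of all 254 genes tested that hold a small nucleolar RNA gene, 33.5% rose and 17.7% fell. An upstream open reading frame is found in the main transcript of 15, and 10 overlap a gene on the opposite strand, from which reads cannot be told apart here because the kit does not mark strand. Of the genes that passed the threshold, that applies to Eif4a2 (overlapping Rfc4), Eif4g3 (1700095J12Rik) and Eif6 (Gm16098). Of the 48, 10 share at least 20% of their main transcript's 50-base stretches with other genes, and 17 share none.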

How the data were processed

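Gene expression was measured by RNA-seq in 2 Smg6-deficient and 2 wild-type mouse ES cell libraries. The authors deposited whole-number counts of reads per Ensembl gene and RPKM values per gene for each library. Per the submitters' processing notes TopHat2 2.0.9 and mm10 were used; neither counting tool nor annotation is given in the sources used here. Identifiers were given symbols and positions from GENCODE M21 on GRCm38 (35449 of 37224 matched). The deposited counts were filtered at a minimum count of 10 with filterByExpr, scaled by TMM and tested across 20895 genes with edgeR 4.0.16 (quasi-likelihood F test, genotype as the only term, Benjamini-Hochberg adjustment, threshold 0.05). Standard errors were taken as |log2 fold change|/√F. The common biological coefficient of variation was 0.118; ratios of RPKM used exact permutation tests. The 48 genes, the lists of related genes and the markers were chosen with earlier results of these data known. Named are Smg6, every gene of the 48 that passed, and those just past and just short of the threshold. Also named are X-linked genes, genes with an annotated NMD transcript and the highest and lowest gene of each role. So are up to 4 genes per related list with the smallest adjusted p. Further genes are named as members of a complex that did not pass, or as said in the text. Alternatives were other scalings, other filters, DESeq2 1.42.0, limma 3.58.1 (voom, and trend on log2 RPKM with a pseudocount of 1 or 0.1), a replicate block, a gene length offset and leaving out each library; added after seeing the data was CPM per kilobase of the main transcript in place of RPKM. The lengths and read totals behind RPKM are not given in these sources.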

Additional observations from a re-analysis of the deposited data

How the results depend on the processing

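Of the 48 translation factor genes 10 were higher and 8 lower. Higher calls numbered 6 with library size alone, 6 with no filter (28587 genes tested), 6 with the gene length offset, and 3 with limma-trend on log2(RPKM + 1) or + 0.1. Lower calls numbered 14 with library size alone, 5 with no filter, 14 with at least 50 counts in 2 libraries, 3 and 3 with limma-trend, 13 with the length offset and 13 with the replicate block and length offset together. Over all genes, against 4285 higher and 4004 lower, library size alone gave 3761 and 4629, and no filter 3916 and 3517. The length offset gave 3783 and 4346, and with the replicate block 4487 and 4944. At least 50 counts in 2 libraries (17656 genes tested) gave 3818 and 4053. Limma-trend on log2(RPKM + 1) gave 2700 and 3147. Leaving out 1 library gave 3 to 12 higher and 3 to 17 lower calls, and without either Smg6-deficient library 12 of the 18 calls were lost, which leaves 1 library in that arm, assumed to vary like the other group. Eif3b and Eif4b passed in 5 of the 17 alternatives, the other 10 of these 12 genes in 10 to 13. Over all genes, too, fewer passed without either Smg6-deficient library, and more without either wild-type library, than with all libraries. The cause was not tested. Leaving out 1 library gave 9 to 17 higher and 4 to 12 lower calls among the related genes, against 13 and 11 with all libraries, and a median log2 fold change of the 48 genes between -0.084 and 0.055, against 0.015. In the fit with the replicate number as a block, 10 genes were higher and 9 lower, Eif2s2 having been gained. Whether the replicate numbers pair the samples is not stated, and 2 pairs cannot decide it. Over the genes tested, same-numbered libraries deviated together with a correlation of 0.155. The median over all genes moved by under 0.1 on the log2 scale with the scalings tried. No called gene of the 48 reversed. With CPM per kilobase of the main transcript, chosen after seeing the data, the 4 ratio differences tried moved by less than the spread between libraries. Every result rests on groups of 2 libraries, and the part of sequencing depth was not tested. Counts of genes with near-identical copies may depend on how shared reads were treated, which was not tested either.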
